A study of Mus musculus with 28 samples.

Results

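Goblet cells are the mucus-secreting cells of the intestinal lining, and 10 genes that they are known for were followed here through organoids given single ligands of the BMP and TGFb family. The rule takes them by gene name and uses no measured value: Muc2, Tff3, Spdef, Fcgbp, Clca1, Agr2, Zg16, Spink4, Foxa3 and Muc13. All 10 were found among 29413 genes of the BMP table and among 55416 genes of the TGFb table. All 10 also passed the filter on low values in both tables, which left 14746 and 12959 genes for testing.

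The samples were organoids, crypt-derived epithelial cultures grown in gel, from the small intestine of wild-type C57BL/6 mice. Crypts were first grown in ENR medium without any added BMP or Tgfb, per the series' design text, and each recombinant ligand was then added at 500 ng/ml for 24 h. The BMP table held 4 untreated controls, 4 samples with BMP2, and 3 each with BMP3, BMP4, BMP5 or BMP7. A separate table held 3 untreated and 3 Tgfb-treated samples, so Tgfb was compared with its own controls. The labels give neither the age of the mice nor how many mice or cultures stand behind the replicates, so p-values measure the spread between these samples, which may be technical. The 5 BMP ligands share 1 set of controls.

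Goblet cells arise from secretory progenitors in which Atoh1 is switched on and Notch signalling is low. Spdef and Foxa3 are transcription factors that act after Atoh1 in goblet maturation, Agr2 is a disulfide isomerase of the endoplasmic reticulum needed to fold mucin, and Muc2 is the polymer that forms the mucus gel. Fcgbp, Clca1, Zg16 and Tff3 are secreted with Muc2 into the mucus, Spink4 is a small secreted protein with a protease-inhibitor fold, and Muc13 is a membrane-bound mucin that enterocytes carry too. BMP signalling is strongest towards the villus tip, where ligand binding leads to phosphorylated SMAD proteins that enter the nucleus, while TGFb acts through a different set of SMADs.

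Promoter sequences are shown for the pair of transcription factors, where Spdef passed the main test below with BMP2 and Foxa3 with BMP4. The fall of Foxa3 with BMP2 passed only under some alternatives. Agr2 and Fcgbp are shown as well, which rose together with BMP4 while Agr2 fell with BMP2 and Fcgbp did not. RefSeq promoter windows on GRCm38.p6, running from 250 bases before to 50 bases after the gene start, were matched for 6 of the 10 members. Each line reads 5′ to 3′ on the gene's own strand. Capitals mark the SMAD box CAGAC or its reverse complement GTCTG, and the GC-rich element GGCGCC, which reads the same on both strands. Spdef lies at chr17:27728902-27729201 on the minus strand, Foxa3 at chr7:19023490-19023789 on the minus strand, Agr2 at chr12:35992675-35992974 on the plus strand and Fcgbp at chr7:28070986-28071285 on the plus strand.
Spdef: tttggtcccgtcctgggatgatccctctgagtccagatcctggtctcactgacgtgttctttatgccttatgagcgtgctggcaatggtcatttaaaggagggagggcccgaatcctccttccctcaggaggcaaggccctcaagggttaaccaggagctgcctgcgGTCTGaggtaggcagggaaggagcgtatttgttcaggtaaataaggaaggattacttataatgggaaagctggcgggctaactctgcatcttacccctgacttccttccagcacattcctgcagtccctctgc
Foxa3: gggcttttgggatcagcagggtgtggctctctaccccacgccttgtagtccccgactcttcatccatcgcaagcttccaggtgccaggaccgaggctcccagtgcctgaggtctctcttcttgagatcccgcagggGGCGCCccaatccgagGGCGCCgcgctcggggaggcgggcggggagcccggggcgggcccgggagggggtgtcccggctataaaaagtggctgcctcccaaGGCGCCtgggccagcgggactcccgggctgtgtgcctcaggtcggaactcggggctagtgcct
Agr2: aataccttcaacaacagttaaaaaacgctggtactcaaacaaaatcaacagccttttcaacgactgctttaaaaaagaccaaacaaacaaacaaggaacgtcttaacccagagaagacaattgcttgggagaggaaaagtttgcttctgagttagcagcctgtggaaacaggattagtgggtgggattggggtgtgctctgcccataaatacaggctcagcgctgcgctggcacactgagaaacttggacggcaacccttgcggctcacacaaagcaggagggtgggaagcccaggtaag
Fcgbp: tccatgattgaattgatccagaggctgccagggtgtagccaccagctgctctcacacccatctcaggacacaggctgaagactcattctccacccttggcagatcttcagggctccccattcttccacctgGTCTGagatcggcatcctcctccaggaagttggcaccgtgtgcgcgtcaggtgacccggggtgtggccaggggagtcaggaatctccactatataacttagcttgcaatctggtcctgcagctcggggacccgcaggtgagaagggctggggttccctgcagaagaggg
The Foxa3 window held 3 copies of GGCGCC and no SMAD box, and its GC content was 69.0%, against a median of 52.7% over all windows. Of 32851 windows of the same length, 11.9% held at least 1 GGCGCC and 0.356% held at least 3. Spdef and Fcgbp held 1 SMAD box each and no GGCGCC, and Agr2 held neither. Of the matched windows not printed, Muc2 held neither motif, 1 Muc13 window held 1 SMAD box and another held neither. The SMAD box is a short motif that 49.6% of all windows contain, so its presence describes the letters only. The GGCGCC shares are over windows of any GC content, so the copies in Foxa3 also describe the letters only.

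The samples of the BMP table were close in depth, at 21356073 to 24782549 recovered reads, and 1 read was worth 0.83 to 1.28 normalized counts. In the TGFb table the values are TPM and the depth is unknown. All 7 epithelial markers (among them Epcam, Vil1 and Cdh1) were present in every group, and their level moved with the ligands. They summed to 98100 to 109000 normalized counts in controls, 585000 to 751000 with BMP2 (6 of 7 higher, 1 lower) and 244000 to 350000 with BMP4 (7 of 7 higher, 5 at the same total). The 5 immune markers summed to 43.7 to 63.1 and the 5 mesenchymal markers to 122 to 206 normalized counts in controls. The 3 endothelial markers summed to 569 to 774 in controls, 832 to 1020 with BMP2 and 865 to 1030 with BMP4. Of them Cdh5 and Kdr were at 0 in every control, so that the control sum was Pecam1 alone. The part of these markers in the members' changes was not tested. In normalized counts, BMP2 replicate II stood apart from the other BMP2 samples for Spink4, Tff3 and Zg16. Without it, 3 members were higher and 5 lower with BMP2, against 3 and 4 with it. In bulk samples such as these, fewer goblet cells and less RNA per goblet cell cannot be told apart.

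BMP4 raised more of the goblet genes than it lowered, BMP2 split them, BMP3 moved none past the test, and BMP5, BMP7 and Tgfb lowered those that they changed. With BMP4, 6 members rose (Zg16, Clca1, Fcgbp, Muc13, Agr2 and Tff3) and Foxa3 and Spink4 fell. BMP2 raised Zg16, Clca1 and Fcgbp and lowered Agr2, Spdef, Spink4 and Muc2. Zg16 and Agr2 fell with BMP5, Zg16 and Spink4 with BMP7, and Agr2, Muc2, Zg16, Clca1, Spink4 and Tff3 with Tgfb.

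These calls were read from limma on log2(value + 1), with Benjamini-Hochberg adjustment over all genes tested and a threshold of 0.05. They must be set against the share of all genes that each ligand changed. BMP4 changed 8 of the 10 members and 65.1% of all genes, with 6 members higher against 33.7% of all genes and 2 lower against 31.4%. BMP2 changed 7 members and 75.1% of all genes, with 3 higher against 36.8% and 4 lower against 38.4%. Rescaling the samples to 1 common total changed that split to 2 higher and 6 lower. It also moved the median of all genes by -0.45 for BMP2, and the shares of all genes at that total were not counted. Tgfb changed 6 members, all lower, where 29.3% of all genes fell and 56.7% changed in either direction. For BMP5 the count was 2 members, both lower, where 9.87% of all genes fell and 26.3% changed. For BMP7 it was also 2, both lower, where 13.2% of all genes fell and 32.4% changed. With replicate numbers as a block, BMP7 changed 4 members and 45.4% of all genes. With BMP3, 0 members and 0% of all genes passed limma's test. Unadjusted p under 0.05 was reached by 110 genes, 0 of them members, and edgeR and DESeq2 also called 0 members. No test set these counts against such large shares of all genes, so they are not read as particular to the members. The results below rest on the size and direction of each gene's change. The median log2 change of the 10 members was 1.35 with BMP4 against 0.04 over all genes. For BMP2 it was -0.33 (all genes -0.03), for BMP5 -0.41 (all genes -0.03), for BMP7 -0.46 (all genes -0.05) and for Tgfb -0.58 (all genes -0.04).

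**Figure D1:**
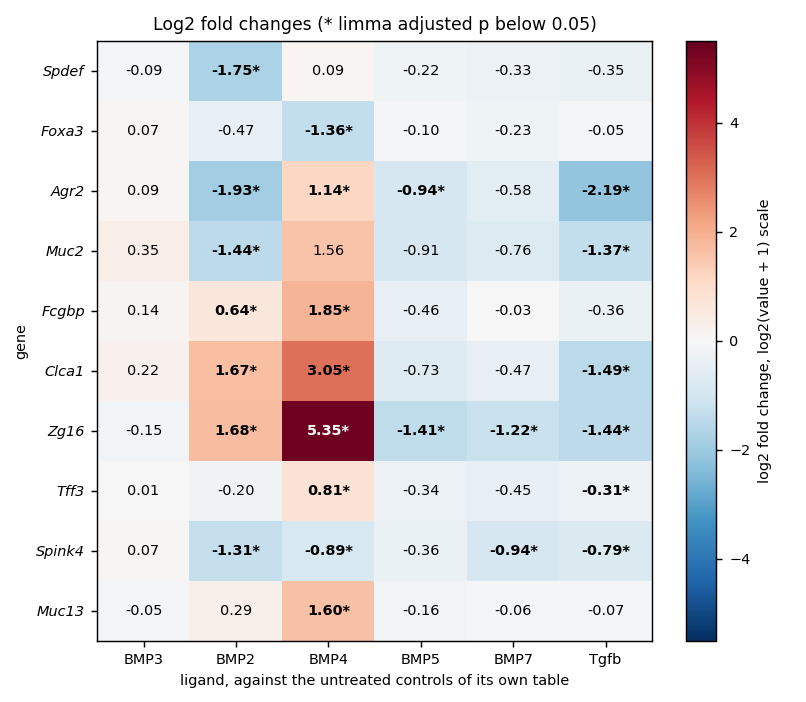
Log2 fold changes of the 10 goblet cell genes (rows) with each ligand (columns) against the untreated controls of the same table, on the log2(value + 1) scale, as colour and number; an asterisk marks a limma adjusted p below 0.05. Zg16 with BMP4 stands out at 5.35, the BMP2 column holds calls in both directions, and every call with BMP5, BMP7 and Tgfb is below 0.

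Of the transcription factors, Spdef fell past the threshold with BMP2 and Foxa3 with BMP4. Spdef (ENSMUSG00000024215), which drives goblet and Paneth maturation, was at 220, 212, 204 and 213 normalized counts in the 4 controls. With BMP2 it was at 62.4, 44.8, 51.8 and 104. Every BMP2 sample lay below every control, and the fall of 1.75 on the log2 scale (SE 0.177) had a limma adjusted p of 4.11e-08. With BMP4 the values were 210, 238 and 229, which overlapped the controls, and the log2 change was 0.09 (adjusted p 0.713). Spdef was at 197 to 203 with BMP3, 171 to 189 with BMP5 and 152 to 186 with BMP7. All of these samples lay below the lowest control, yet none of the 3 groups passed the test. The BMP7 change of -0.33 (adjusted p 0.196) passed without BMP2 replicate VI (adjusted p 0.0398) and, at the threshold, with only these 2 groups in the fit (0.05 after rounding). BMP2 against BMP4 differed by -1.84 on the log2 scale (adjusted p 9.93e-08).

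Foxa3 (ENSMUSG00000040891), a forkhead factor of the goblet programme, was lower with BMP4 than with BMP2. The controls were at 521, 631, 805 and 843 normalized counts and the BMP4 samples at 256, 256 and 293. All BMP4 samples were below all controls, a 2.56-fold fall (log2 change -1.36, SE 0.259, limma adjusted p 0.000149). With BMP2 Foxa3 was at 288, 483, 672 and 653, which overlapped the controls, and the log2 change of -0.47 missed the threshold (adjusted p 0.0859). That call changed without BMP2 replicate IV (log2 change -0.61, adjusted p 0.0356), without BMP2 replicate VI or without control replicate II (both -0.60 and 0.0407). At the same total Foxa3 fell with BMP2 too (-0.92, adjusted p 0.00176), and so it did with replicate numbers as a block (-0.47, adjusted p 0.002). Foxa3 was 1.85-fold higher with BMP2 than with BMP4 (adjusted p 0.00539), although 1 BMP2 value fell inside the BMP4 range. It is the only member that was higher with BMP2 than with BMP4 among those that passed.

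Agr2 (ENSMUSG00000020581), the mucin-folding isomerase, rose with BMP4 and fell with BMP2. Its controls were at 3650, 2980, 2740 and 2930 normalized counts. The BMP4 samples were at 7500, 7310 and 5580 and the BMP2 samples at 1080, 566, 574 and 1180, so the 3 groups did not overlap. The log2 change was 1.14 with BMP4 (SE 0.26, limma adjusted p 0.000817) and -1.93 with BMP2 (SE 0.241, adjusted p 7.08e-07). The direct contrast of BMP2 with BMP4 was 8.39-fold lower (adjusted p 6.36e-09).

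BMP5 put Agr2 at 2160, 1750 and 1070 normalized counts, below all controls, with a log2 change of -0.94 (limma adjusted p 0.0118). Without BMP5 replicate VI, the lowest of them, the change was -0.65 with an adjusted p of 0.105. With BMP7 the values were 2070, 2600 and 1580, also below every control, and the change of -0.58 did not pass (adjusted p 0.0955). With replicate numbers as a block it was -0.66 and passed (adjusted p 0.032). It also passed with only these 2 groups in the fit (-0.58, adjusted p 0.0228) and with quantile normalization (-0.74, adjusted p 0.0265).

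**Figure D2:**
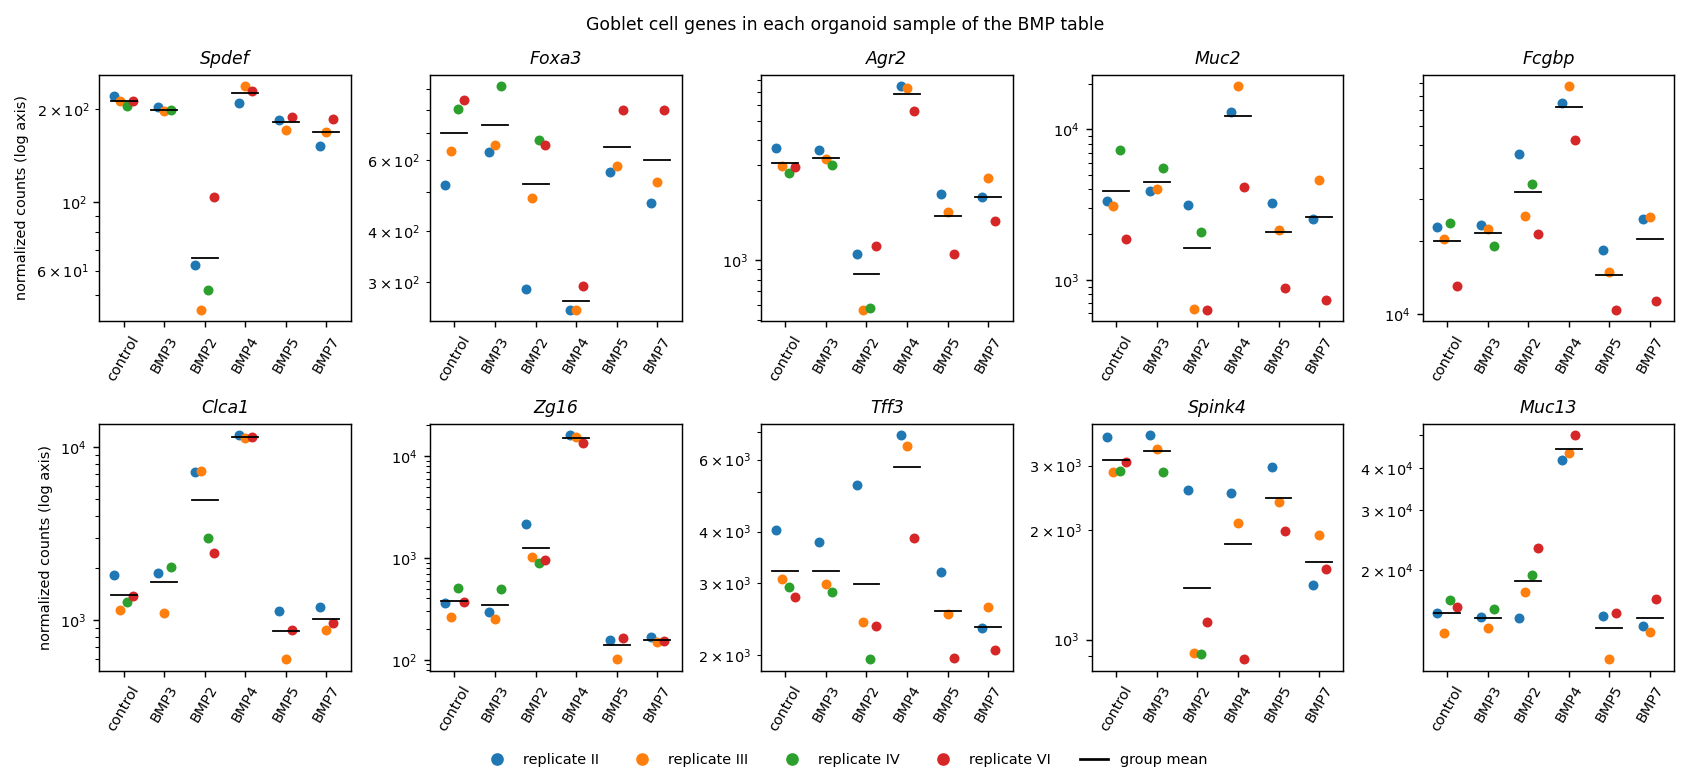
Normalized counts (log axes, each with its own range) of the 10 genes in every sample of the BMP table, 1 panel per gene, coloured by replicate number, with a line at each group mean. The 3 BMP4 samples of Zg16 sit at 13500 to 15900 above all others, the 4 BMP2 samples of Spdef at 44.8 to 104 below all others, and replicate VI is the lowest of each group that has it in the Muc2 and Fcgbp panels.

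Muc2 (ENSMUSG00000025515), the gel-forming mucin, varied widely between untreated samples. The controls were at 3360, 3110, 7270 and 1860 normalized counts, the BMP4 samples at 13000, 19500 and 4160, and the BMP2 samples at 3120, 634, 2090 and 632. Both ligand groups overlapped the controls. Muc2 had a log2 change of 1.56 with BMP4 (SE 0.685) that missed the threshold (limma adjusted p 0.0535), and one of -1.44 with BMP2 (SE 0.635) that passed it narrowly (adjusted p 0.048).

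Set against the control of the same replicate number, Muc2 was 3.87, 6.27 and 2.24 times as high in the 3 BMP4 samples. With replicate numbers as a block the log2 change of Muc2 with BMP4 was 1.85 and passed (limma adjusted p 0.000755). It also passed without BMP4 replicate VI (2.21, adjusted p 0.014) or without control replicate IV (1.92, adjusted p 0.026). Neither call held across the alternatives, which apart from the block fit did not use the replicate numbers. The BMP4 change passed in 11 of 28 alternatives. The BMP2 call was lost under 14 of 28, for example without control replicate IV (-1.08, adjusted p 0.154), BMP2 replicate III (-1.10, adjusted p 0.15) or BMP2 replicate VI (-1.10, adjusted p 0.147). With replicate numbers as a block the BMP2 change was -1.44 and passed (limma adjusted p 0.00202). BMP2 and BMP4 themselves did not overlap, and Muc2 was 8-fold lower with BMP2 (log2 difference -3.00, adjusted p 0.0008). With BMP5 the values were 3230, 2140 and 884 and with BMP7 2520, 4570 and 731, and neither passed (adjusted p 0.359 and 0.415).

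Fcgbp (ENSMUSG00000047730), the mucus protein that binds Muc2, was at 22800, 20400, 23800 and 13000 normalized counts in controls. BMP4 brought it to 74900, 87900 and 52300, clear of every control, a 3.6-fold rise (log2 change 1.85, limma adjusted p 3.31e-05). With BMP2 it was at 46000, 25300, 34500 and 21400, which overlapped the controls, and the change of 0.64 passed narrowly (adjusted p 0.047). With replicate numbers as a block the change was also 0.64 (adjusted p 0.000504). This BMP2 call depends on how the samples are scaled. Rescaling to 1 common total, which moved the median of all genes by -0.45 for BMP2 and -0.39 for BMP4, left Fcgbp at 0.18 (adjusted p 0.585), and quantile normalization left it at -0.05. It was also lost without BMP2 replicate II (0.45, adjusted p 0.172), without BMP2 replicate IV (0.58, adjusted p 0.101) or without control replicate VI (0.45, adjusted p 0.17). With BMP5 Fcgbp was at 18300, 14900 and 10400 and missed the threshold (log2 change -0.46, adjusted p 0.295), but passed with replicate numbers as a block (-0.41, adjusted p 0.0487). In RefSeq order it lies beside the gene 9530053A07Rik, which was at 2.48 to 17 normalized counts in all samples.

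Zg16 (ENSMUSG00000049350), a lectin-like protein of the mucus that binds bacterial cell walls, had the largest change of the 10. The controls were at 361, 266, 511 and 366 normalized counts. The BMP4 samples were at 15900, 15500 and 13500, and the BMP2 samples at 2160, 1020, 901 and 950. Both groups lay above all controls, and the BMP4 samples lay above all BMP2 samples. Zg16 was 40.7-fold higher with BMP4 (log2 change 5.35, SE 0.282, limma adjusted p 3.97e-11) and 3.2-fold higher with BMP2 (1.68, SE 0.261, adjusted p 1.12e-05). Without BMP2 replicate II the BMP2 change was 1.38 (adjusted p 2.11e-05).

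With BMP5 and BMP7 the same gene fell. Zg16 was at 156, 101 and 165 normalized counts with BMP5 and at 167, 149 and 153 with BMP7, all below the lowest control. The falls were 2.65-fold (log2 change -1.41, limma adjusted p 0.00107) and 2.34-fold (-1.22, adjusted p 0.00265). Against the control of the same number the ratios were 0.38 to 0.451 with BMP5 and 0.418 to 0.56 with BMP7. With BMP3 Zg16 was at 294, 249 and 491, within the spread of the controls. The level therefore ran from BMP4 through BMP2 to the untreated and BMP3 samples and then to BMP5 and BMP7. In that order BMP3 and control overlapped, and BMP5 and BMP7 differed by -0.18 (95% interval -0.82 to 0.45).

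Clca1 (ENSMUSG00000028255), a secreted metalloprotease that processes Muc2, rose with the same ligands as Zg16. The controls were at 1830, 1150, 1270 and 1380 normalized counts. The BMP4 samples were at 11700, 11300 and 11400 and the BMP2 samples at 7190, 7260, 2970 and 2450. All treated samples of both groups were above all controls, and the 3 BMP4 samples were within a narrow range. The rise was 8.27-fold with BMP4 (log2 change 3.05, SE 0.331, limma adjusted p 2.21e-07) and 3.18-fold with BMP2 (1.67, SE 0.306, adjusted p 7.07e-05). With BMP5 it was at 1130, 594 and 873, below every control, yet the log2 change of -0.73 did not pass (adjusted p 0.117). It passed with only these 2 groups in the fit (adjusted p 0.0415). BMP7 gave 1190, 874 and 969 and overlapped the controls (-0.47, adjusted p 0.295).

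**Figure D3:**
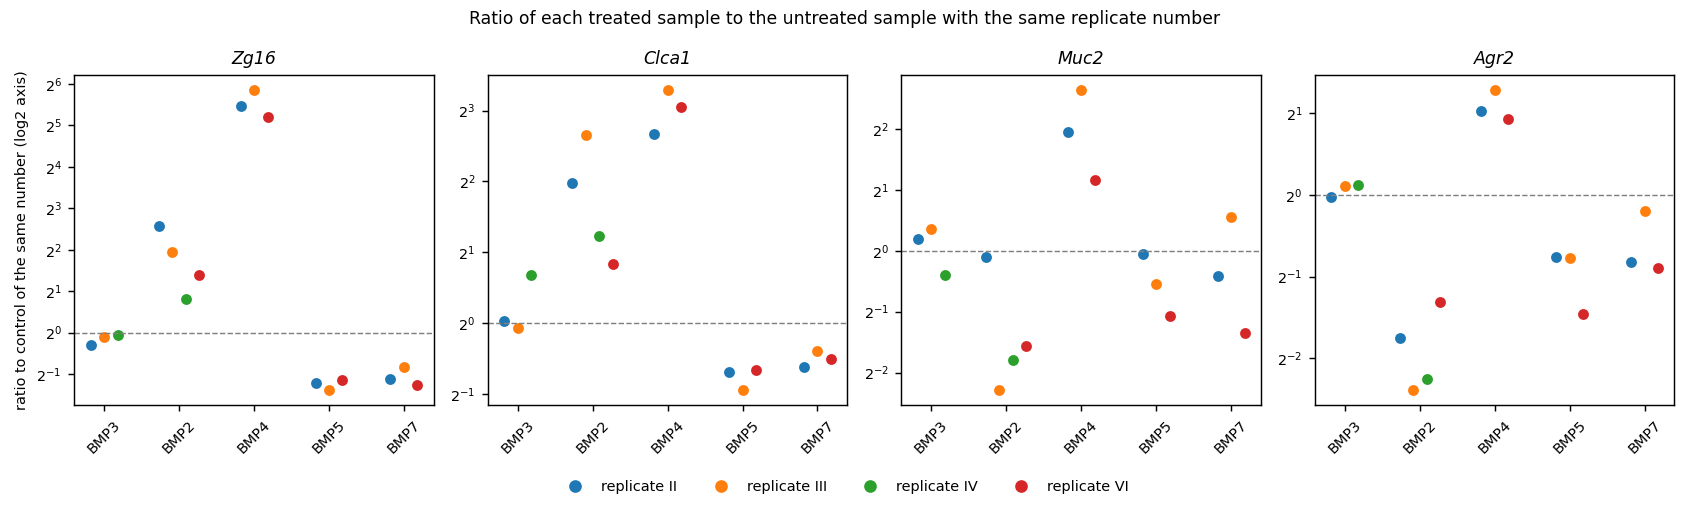
Ratio of each treated sample to the untreated sample with the same replicate number (log2 axis, dashed line at 1) for Zg16, Clca1, Muc2 and Agr2 with each BMP ligand, coloured by number. Zg16 with BMP4 lies at 36.9 to 58.3, Muc2 with BMP2 spreads from 0.204 to 0.929, and all 6 Zg16 ratios with BMP5 and BMP7 lie below 1.

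The small secreted peptides Tff3 and Spink4 were among the more modest movers. Tff3 (ENSMUSG00000024029), a trefoil peptide that aids repair of the lining, was at 4040, 3060, 2930 and 2770 normalized counts in controls and at 6870, 6490 and 3860 with BMP4. The ranges overlapped by 1 sample, and the log2 change was 0.81 (limma adjusted p 0.013). It fell under the threshold with the same total in every sample (0.41, adjusted p 0.2), with quantile normalization (0.37, adjusted p 0.236), without BMP4 replicate II (0.66, adjusted p 0.0706) or without BMP4 replicate III (0.70, adjusted p 0.0594). With BMP2 Tff3 was at 5190, 2410, 1950 and 2350, where replicate II alone was above the controls. Its log2 change was -0.20 (adjusted p 0.477). It passed without BMP2 replicate II (-0.51, adjusted p 0.0279) and, with all samples, at the same total (-0.66, adjusted p 0.0269) and with quantile normalization (-0.64, adjusted p 0.0268). BMP7 gave 2330, 2620 and 2050, below every control. That change of -0.45 did not pass (adjusted p 0.217). It did with replicate numbers as a block (-0.52, adjusted p 0.0238) and with only these 2 groups in the fit (-0.45, adjusted p 0.0344).

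Spink4 (ENSMUSG00000028415), the protein with a protease-inhibitor fold, is the member that fell with both BMP2 and BMP4. The controls were at 3600, 2890, 2900 and 3070 normalized counts, the BMP2 samples at 2570, 919, 915 and 1120, and the BMP4 samples at 2520, 2090 and 882. Every treated sample of both groups was below every control. The log2 change was -1.31 with BMP2 (SE 0.302, limma adjusted p 0.000671), or -1.66 without BMP2 replicate II (adjusted p 1.13e-05), and -0.89 with BMP4 (SE 0.326, adjusted p 0.0223). The latter was -0.43 without BMP4 replicate VI (adjusted p 0.219) and -0.82 without control replicate II (adjusted p 0.0528). The 2 ligands did not differ past the threshold for Spink4 (log2 difference -0.42, 95% interval -1.10 to 0.27), but they did without BMP2 replicate II (-0.77, adjusted p 0.0184) or without BMP4 replicate VI (-0.88, adjusted p 0.0159). With BMP7 Spink4 was at 1410, 1940 and 1560, again below all controls (-0.94, adjusted p 0.035). That call was lost in 7 of 28 alternatives, which were no filter on low values (adjusted p 0.0521), leaving out any 1 of the 4 controls (0.0512 to 0.0768), and leaving out BMP7 replicate II (0.122) or VI (0.0933).

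Muc13 (ENSMUSG00000022824), the membrane mucin, rose with BMP4 in each sample. The controls were at 14900, 13000, 16300 and 15600 normalized counts and the BMP4 samples at 42100, 44200 and 49900. The groups were far apart relative to their spread, with a 3.04-fold rise (log2 change 1.60, SE 0.147, limma adjusted p 2.89e-08). With BMP2 Muc13 was at 14400, 17200, 19300 and 23200, which overlapped the controls, and 0.29 missed the threshold (adjusted p 0.0599). Without BMP2 replicate II it passed at 0.41 (adjusted p 0.0103), and without BMP5 replicate III, through the common estimate of the spread, at 0.29 (adjusted p 0.0461). The direction turned to -0.17 with the same total in every sample. BMP3, BMP5 and BMP7 left it between 10900 and 16400, and none passed.

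BMP3 left the 10 genes near the controls throughout. The log2 changes ran from -0.15 for Zg16 to 0.35 for Muc2, and the lowest unadjusted p of a member was 0.521. The 95% intervals still allowed sizeable changes in Muc2 (-1.09 to 1.79), while they were narrower for Muc13 (-0.36 to 0.26) and Spdef (-0.49 to 0.31). Only Spdef had no overlap with the controls, at 203, 197 and 198 normalized counts just under the lowest control of 204. Over all genes 2.53% showed no overlap with BMP3.

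Between BMP5 and BMP7, 0 of the 10 members differed past the threshold by limma, against 0.0136% of all genes, and 0 members had an unadjusted p under 0.05. The log2 differences ran from -0.43 for Fcgbp (95% interval -1.12 to 0.25) to 0.57 for Spink4 (-0.16 to 1.31). These intervals are wide enough to hold changes of the size called elsewhere.

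The direct comparison of BMP2 and BMP4 called 9 members, where 66.8% of all genes were called. Only Spink4 did not pass. Of all genes 33.4% were higher with BMP2 and 33.4% lower, and of the members 1 was higher and 8 lower. The 8 members that were lower with BMP2 ran from Tff3 (log2 difference -1.02, limma adjusted p 0.00281) to Zg16 (-3.67, adjusted p 1.69e-09). Limma's F-test over the 5 ligands called all 10 members, where 84.1% of all genes were called. Over the 10 pairs of ligands, 56 of 100 differences of members passed, against 50.5% over all genes.

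Tgfb lowered goblet genes in its own table, and none rose. Agr2 was at 260, 287 and 310 TPM in controls and at 67.4, 62.1 and 55.9 with Tgfb. The groups were far apart, a 4.57-fold fall (log2 change -2.19, SE 0.1, limma adjusted p 1.58e-05). Muc2 went from 9.69, 13.7 and 16.8 TPM to 4.88, 5.36 and 3.38, without overlap (-1.37, adjusted p 0.0026). Zg16 went from 42, 39.5 and 80.5 TPM to 14.7, 16.7 and 24.6, again without overlap (-1.44, adjusted p 0.00831).

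Spink4, Clca1 and Tff3 fell as well. Spink4 was at 1010, 1270 and 1280 TPM in controls and at 670, 753 and 629 with Tgfb (log2 change -0.79, limma adjusted p 0.00227). Clca1 was at 7.26, 16.6 and 24.3 TPM in controls and at 5.19, 3.5 and 4.91 with Tgfb, where control replicate I lay close to the treated samples (-1.49, adjusted p 0.0194). The Clca1 call was lost without Tgfb replicate II (adjusted p 0.0602) or without control replicate II (0.0617). Tff3 went from 569, 650 and 692 TPM to 509, 535 and 497, a small change without overlap (-0.31, adjusted p 0.0293). It was lost in 7 of 11 alternatives, which left out any of the 3 Tgfb samples (adjusted p 0.0546 to 0.0839) or control replicate II (0.0937) or III (0.095), dropped the filter (0.0606) or used quantile normalization (0.0651).

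The remaining genes did not pass with Tgfb. Fcgbp was at 174, 159 and 198 TPM in controls and 161, 126 and 127 with Tgfb, and its -0.36 just missed the threshold (limma adjusted p 0.0533). It was -0.47 without Tgfb replicate I (adjusted p 0.0158). Spdef was at 9.06, 8.41 and 6.4 TPM in controls and 6.01, 4.51 and 7.73 with Tgfb (-0.35, adjusted p 0.18). Foxa3 stayed at 16.5 to 23.2 TPM over both groups (-0.05, adjusted p 0.777), and Muc13 at 273 to 309 TPM (-0.07, adjusted p 0.448).

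**Figure D4:**
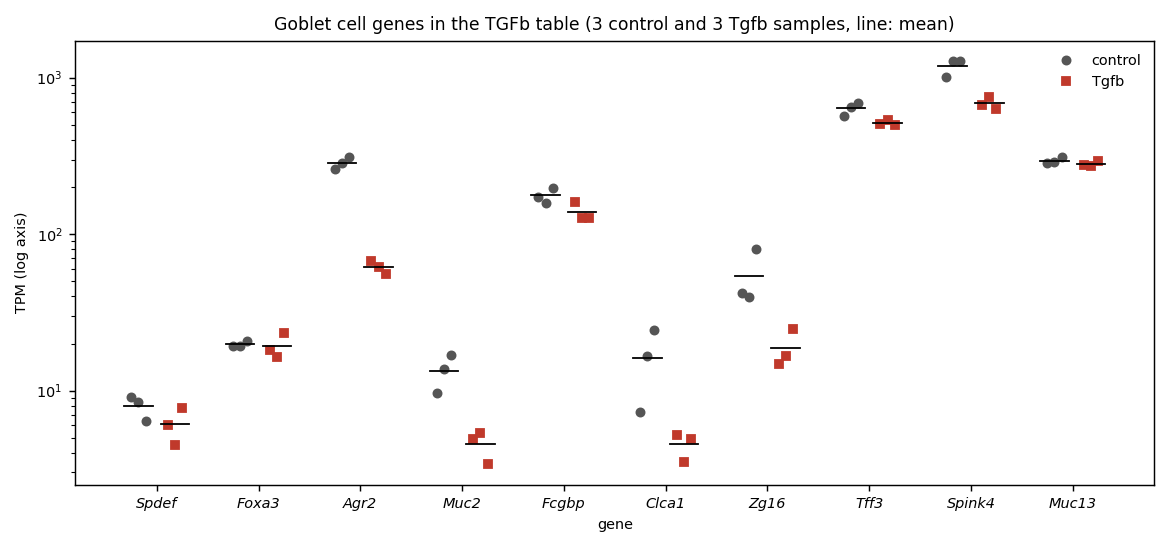
TPM (log axis) of the 10 genes in the 3 untreated (circles) and 3 Tgfb-treated (squares) samples of the TGFb table, with a line at each group mean. Agr2 drops from 260 to 310 TPM in controls to 55.9 to 67.4 with Tgfb, while the 2 groups of Foxa3 and Muc13 overlap.

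TPM, which are scaled by transcript length, also allow the members to be ranked in untreated organoids. Spink4 was the most abundant, at a mean of 1190 TPM, ahead of Tff3 at 637, Muc13 at 294 and Agr2 at 286. Fcgbp was at 177, Zg16 at 54, Foxa3 at 19.8, Clca1 at 16.1, Muc2 at 13.4 and Spdef at 7.96 TPM. The neighbours Muc13 and Agr2 overlapped in their samples, as did Foxa3 and Clca1, and Clca1 and Muc2. The gel-forming mucin was thus near the bottom of the order.

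Counts of the further gene lists below stand against the shares of all genes that rose and fell. These were 36.8% and 38.4% with BMP2, 33.7% and 31.4% with BMP4, 16.5% and 9.87% with BMP5, 19.2% and 13.2% with BMP7, and 27.4% and 29.3% with Tgfb. No test set the counts of a list against these shares, so they are given as description and not read as particular to a list.

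Among regulators of the secretory lineage, more fell than rose with BMP2, BMP4, BMP5, BMP7 and Tgfb. Of 11 tested, 1 rose and 6 fell with BMP2, 2 rose and 8 fell with BMP4, 3 fell with BMP5, 1 rose and 3 fell with BMP7, and none passed with BMP3. Atoh1, the factor that commits cells to the secretory fate, fell with BMP2 (log2 change -1.71, limma adjusted p 5.77e-06). Its mean was 277 ± 50.5 normalized counts under BMP4 (SD, n = 3) and 273 ± 54.1 without ligand (SD, n = 4). Neurog3, which specifies enteroendocrine cells, fell with BMP2 (-5.93) and BMP4 (-6.13), to means of 1.22 and 1.16 normalized counts, near the floor. Its mean was 137 ± 37.7 in controls (SD, n = 4), and also lower with BMP5 (72.7 ± 20.9) and BMP7 (21.3 ± 2.74, both SD, n = 3). Klf4, a factor of goblet and surface cells, rose with BMP2 and BMP4 (2.74 and 3.94). Creb3l1, a membrane-bound factor of secretory cells, fell with BMP2 (-3.10), BMP4 (-1.31), BMP5 (-0.68) and BMP7 (-0.79), and Dll1, the Notch ligand of secretory progenitors, fell with the same ligands (-2.57, -0.99, -0.97 and -1.40). With Tgfb 1 of 10 rose and 6 fell, with Atoh1 at -1.49 and Sox9, a crypt and Paneth cell factor, at 0.81 as the one that rose.

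Genes that accompany mucus secretion went both ways. Of 21 tested goblet accessory genes, BMP4 raised 8 and lowered 6, BMP2 raised 6 and lowered 11, BMP5 raised 5 and lowered 7, and BMP7 raised 4 and lowered 9. Tgfb raised 6 and lowered 13 of 21. At 1 common total the BMP4 split was 6 higher and 10 lower. The median log2 change was 0.01 with BMP4, -0.67 with BMP2 and -0.88 with Tgfb. Capn9, a calpain, rose with BMP4 from 32.4 ± 11.1 (SD, n = 4) to 335 ± 43.8 normalized counts (SD, n = 3), a log2 change of 3.38. Bcas1 (2.97) and Tspan13 (0.88), a tetraspanin gene next to Agr2 in RefSeq order, also rose with BMP4, whereas Atp2c2, a Golgi calcium pump, fell (-1.75). With BMP2 the smallest p-values belonged to Nlrp6, an inflammasome sensor (-6.03), Sytl2, a granule-docking protein (2.67), the disulfide isomerase Pdia5 (-1.91) and Atp2c2 (-2.46). Bace2, an aspartic protease, rose with BMP5 (1.31) and BMP7 (1.12). Its mean was higher still with BMP2, at 706 ± 146 normalized counts (SD, n = 4) against 178 ± 17.9 in controls (SD, n = 4). Nlrp6 (-2.48), Scin (-2.28), Atp2c2 (-1.31) and Pdia5 (-1.05) fell with Tgfb.

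The enzymes that attach and extend mucin O-glycans rose and fell in similar numbers, and their split depended on the scaling. Of 16 tested, BMP2 raised 7 and lowered 7, BMP4 raised 7 and lowered 4, BMP5 raised 4 and lowered 2, and BMP7 raised 4 and lowered 5. Tgfb raised 5 and lowered 3 of 15. At 1 common total, 5 were higher and 9 lower with BMP2, 2 and 7 with BMP4, and 4 and 3 with BMP5. Galnt3, which starts O-glycan chains, rose with BMP2 (log2 change 2.61), BMP5 (1.05), BMP7 (1.20) and Tgfb (1.75). C1galt1, which makes the core 1 structure, rose with BMP2 (1.46), BMP5 (0.61), BMP7 (0.67) and Tgfb (1.20), while its 0.33 with BMP4 turned to -0.07 with the same total. Gcnt1, which branches core 1 into core 2, rose with BMP2 (3.23), BMP4 (1.27), BMP5 (1.73), BMP7 (1.67) and Tgfb (1.88). B3gnt7 fell with BMP2 (-2.10), BMP5 (-1.08), BMP7 (-1.29) and Tgfb (-0.82). With BMP4 it rose (0.53), which was lost with the same total (0.14, adjusted p 0.448). The highest limma adjusted p of these values was 0.00695, for B3gnt7 with BMP4.

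Among other mucins 5 genes were tested in the BMP table. With BMP2, 2 rose and 1 fell, 1 rose with each of BMP4, BMP5 and BMP7, and Tgfb raised 1 of 3 and lowered 1. The membrane mucins Muc3 and Muc4 were those that rose. The mean of Muc3 was 4680 ± 1060 normalized counts without ligand (SD, n = 4). BMP4 took it to 52700 ± 20400 (SD, n = 3), a log2 change of 3.46 (limma adjusted p 4.78e-07), and BMP2 to 12700 ± 9630 (SD, n = 4), a change of 1.21 (0.0064). The BMP2 change of Muc3 was lost with the same total (0.75, adjusted p 0.0904). Muc4 rose with BMP2 (3.54), BMP5 (1.56), BMP7 (1.62) and Tgfb (2.15). Muc3 and Muc3a are similar in name and the tables do not say how reads common to both were divided, so their separate values are uncertain.

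Relatives of the members went both ways. Of 13 tested in the BMP table, BMP2 raised 5 and lowered 6, BMP4 raised 3 and lowered 7, BMP5 raised 3 and lowered 4, and BMP7 raised 3 and lowered 5. Tgfb raised 4 of 12 and lowered 6. Clca4a, a paralogue of Clca1, rose with BMP2 (log2 change 6.94), BMP4 (5.65), BMP5 (3.45), BMP7 (4.17) and Tgfb (4.47), while Clca3b fell with BMP2 (-1.60), BMP4 (-4.30), BMP5 (-1.45), BMP7 (-1.53) and Tgfb (-3.10). Clca genes are close copies of each other, so reads may be split between them with error. Foxa2 fell with BMP4 (-2.72) and BMP2 (-2.38), and Foxa1 rose with BMP2 (2.87), BMP5 (1.19), BMP7 (1.36) and Tgfb (2.03) and fell with BMP4 (-0.59). Agr3, next to Agr2, fell with BMP4 (-1.88), in which Agr2 rose.

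Markers of other epithelial cells moved in the same samples. The 7 enterocyte markers (such as Apoa4, Fabp1 and Sis) summed to 354000 to 438000 normalized counts with BMP4 against 47900 to 91300 in controls, and 7 of 7 were higher. With BMP2 the sum was 32200 to 80300, with 1 higher and 3 lower, and 0 and 3 with the same total. The 6 stem and cycling markers (such as Lgr5, Olfm4 and Mki67) summed to 118000 to 146000 in controls, 431 to 1630 with BMP2, 6740 to 10800 with BMP4, 43500 to 96800 with BMP5 and 37300 to 46600 with BMP7. Of the 7 Paneth markers, 6 were lower with BMP2 and 1 with BMP4, but 7 and 6 with the same total. In the TGFb table the stem and cycling sum was 2700 to 3140 TPM in controls and 230 to 240 with Tgfb. The Paneth sum was 14300 to 17600 and 9900 to 13300, with 1 marker higher, 2 lower and 4 not past the threshold. None of the enterocyte, stem and cycling and Paneth lists had a marker at 0 in every sample of the groups named. The 6 tuft markers summed to 363 to 430 normalized counts in controls and 1480 to 2330 with BMP2, where 3 of 4 tested were higher and 0 lower. The 7 enteroendocrine markers summed to 6720 to 9630 in controls and 7600 to 17900 with BMP2, with 3 higher and 3 lower. The part of these other cell types in the members' changes was not tested.

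The 5 genes whose log2 values followed Muc2 most closely over the 20 samples of the BMP table were Zfp871 (Pearson r 0.929), Gm42519 (0.896), Gm45033 (0.894), Mgam (0.89) and Gm31392 (0.886), out of 11846 genes with a mean of at least 50 normalized counts. This is a description, since the 20 samples share ligand groups and libraries, and no p is attached. Mgam, an enterocyte enzyme that digests starch, had a mean of 26400 ± 7330 normalized counts without ligand (SD, n = 4). That mean was 53500 ± 20300 under BMP4 (SD, n = 3) and 9680 ± 1330 under BMP2 (SD, n = 4). None of the other 9 members was among these 5 genes.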

How the data were processed

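The 28 samples of mRNA, prepared with the KAPA Hyperprep kit per the labels' protocols, were read as single ends over 2 NextSeq 500 runs, and samples are not assigned to runs in the sources used here. The 26 organoid samples were used here. Trim Galore, Salmon, DESeq2 and the build GRCm39 are named in the submitters' processing notes, without versions or roles. The deposited values of the BMP table are a signal that amounts to gene counts over a size factor of each sample, written to 3 digits. This was read from the values. Of 180236 values of up to 20 reads, 100% were whole multiples of 1 step within a tolerance of 0.1, so whole reads could be recovered. The deposited values of the TGFb table are TPM, which keep no depth. The 2 tables were tested apart. Every column was mapped (0 unmapped).

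The main test was that of limma 3.58.1 (R 4.3.3). It ran on log2(value + 1), which understates the change of low genes. Genes at a mean of at least 10 normalized counts (BMP table, 1 fit of 6 groups) or 1 TPM were kept. Tests were two-sided, and all adjusted p-values are limma's with Benjamini-Hochberg adjustment over all genes tested, at 0.05. Of the edgeR 4.0.16 and DESeq2 1.42.0 alternatives, both used the recovered reads. Other scalings of the further gene lists were added after seeing the data. Scripts were tested on simulated data. The members and all lists were chosen with earlier results of these data known. Named genes beside the 10 members are up to 4 per list and comparison with the smallest p past the threshold, further values of these genes in other comparisons, Atoh1 and Sox9, which were chosen after their values were seen, and the 5 genes most like Muc2.

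Whether the replicate numbers in the titles pair samples was judged by how a ligand sample and the control with its number deviate together from their group means. For BMP3, BMP4, BMP5 and BMP7 all 12 correlations were over 0.1, from 0.16 to 0.55, so the block fit is given beside results whose call it changes. Each of these 12 samples correlated best with the control of its own number. For BMP2 they were 0.2, 0.02, 0.42 and 0.31 (replicates II, III, IV and VI), of which that of replicate III was not over 0.1. For Tgfb (0 to 0.07) none was. Promoter windows came from RefSeq on GRCm38.p6, not the build of the files, and were used as sequences only.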

Additional observations from a re-analysis of the deposited data

Results flagged for a closer look

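Among the 20 sets of values tested for a sample far from the rest (10 genes in the 2 groups of 4 samples), 3 stood out, and all were BMP2 replicate II. Chance flags about 1 set in 20. The gaps were measured on normalized counts, not on log2 values, and the 3 flagged sets share 1 sample. They are therefore not separate draws, and whether they go beyond chance was not tested. In BMP2 replicate II, Spink4 was at 2570 normalized counts against 915 to 1120 in the other BMP2 samples. Tff3 was at 5190 against 1950 to 2410. Zg16 was at 2160 against 901 to 1020. The part of this sample in the BMP2 results is given by leaving it out: Zg16 still rose (log2 change 1.38, limma adjusted p 2.11e-05) and Spink4 still fell (-1.66, adjusted p 1.13e-05), whereas Tff3, which did not pass with all samples (-0.20, adjusted p 0.477), fell (-0.51, adjusted p 0.0279).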

How the results depend on the processing

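The count of changed members held within 1.5 times of its value for BMP2, BMP3, BMP4, Tgfb, BMP2 against BMP4, the 5 ligands and the ligand pairs under each alternative run. The BMP7 count of 2 became 1 with no filter on low values, 4 with the replicate block and 5 with only the 2 groups compared. Leaving out 1 sample at a time gave 1 to 3 members for BMP7, 1 to 2 for BMP5, 5 to 8 for BMP2, 7 to 9 for BMP4, 4 to 6 for Tgfb and 50 to 60 of 100 for the pairs. The block gave 9 members for BMP2, adding Foxa3 and Muc13, 6 for Tgfb and 65 for the pairs. For BMP7 the block raised the share of all genes called from 32.4% to 45.4%. The shares for the other alternative counts are not given, so these counts are not read as particular to the members. With the control of the same number, BMP2 correlations were 0.2, 0.02, 0.42 and 0.31 for replicates II, III, IV and VI. Of the BMP2 samples, 3 of 4 correlated best with their own number. Tgfb correlations were 0 to 0.07, and 1 of 3 Tgfb samples correlated best with its own number. The block changed no other call against control than those given here and in the report.

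Directions turned for small changes. Muc13 with BMP2 was -0.17 with the same total and -0.30 with quantile normalization, where Fcgbp with BMP2 was -0.05. Spdef with BMP4 was -0.31 with the same total and -0.01 by edgeR. Fcgbp with BMP7 was 0.03 with the block and by edgeR, 0.02 by DESeq2, and -0.22 to 0.35 with single samples left out. Muc13 with BMP7 and Foxa3 with Tgfb, each with 1 sample left out, ran -0.15 to 0.01 and -0.18 to 0.05. With BMP3, the block gave 0.01 for Muc13, -0.08 for Tff3, -0.09 for Muc2, -0.01 for Spink4 and -0.05 for Fcgbp, and Tff3 was -0.01 by edgeR and 0.00 with quantile normalization. Single samples left out gave -0.10 to 0.17 for Foxa3, -0.12 to 0.12 for Tff3, -0.43 to 0.05 for Zg16, -0.05 to 0.24 for Fcgbp, 0.00 to 0.16 for Spink4. Of 840 alternatives to the 34 called member changes, 790 kept direction and call, 49 lost the call and 1 turned. Many of these left out a sample of neither group compared. Such runs cannot move the log2 change and alter only the common estimate of the spread and the genes tested. The cause of these changes was not tested. Sample numbers of 3 or 4 per group limit what can be called, and the TGFb table's depth is unknown.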
